A study of Caenorhabditis elegans with 2 samples.

Results

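ZIP-5-eGFP peaks in divergent promoters are peaks whose summit lies in promoter windows of genes on both DNA strands at once. The promoter window of a protein-coding gene was taken to reach 1000 bp upstream and 200 bp downstream of its outermost start in the annotation. A peak was taken when its summit lay in the window of at least 1 plus-strand gene and at least 1 minus-strand gene. This gave 203 of the 730 nuclear peaks in the optimal set, which held 746 peaks in all. A further 254 nuclear peaks lay in windows of genes of 1 strand only, and 273 lay outside all promoter windows. Within the optimal set the choice used positions only, and neither the signal nor the sequence of a peak. The optimal set itself held strong peaks only, and the lowest signal among the 203 was 95.3.

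The peaks come from chromatin immunoprecipitation and sequencing (ChIP-seq) of whole Caenorhabditis elegans of strain OP544, which is unc-119(tm4063) III; wgIs544 and expresses ZIP-5 with a C-terminal GFP-FLAG tag from a transgene. The animals were hermaphrodite late embryos, taken 4 hours after their synchronization by bleaching, and the fusion protein was recovered with an antibody against GFP. There were 2 biological replicates of this single group, so no groups were compared. The optimal set was derived from these replicates by the irreproducible discovery rate, which rests on how reproducibly peaks rank. Its peaks did not all rank high in both replicate lists. Among the 203, ranks reached down to 1183 in replicate 1 and 2366 in replicate 2. The lists carry no read counts, so the sequencing depth is unknown. Their signal value has no stated unit and was used only to rank or describe peaks. An untagged control immunoprecipitation was not analysed here, and whether the fusion protein itself was bound at a given promoter was not tested.

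ZIP-5 is a basic leucine zipper (bZIP) transcription factor. Proteins of this family pair through the zipper and place a basic region of each partner in the major groove of DNA, often at short palindromes. In a divergent promoter a pair of genes is transcribed away from a shared stretch of DNA, so a factor bound between the starts sits upstream of both. Many nematode genes are trans-spliced, so transcription can begin upstream of the start in an annotation.

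Short words recurred at these summits. The word CTAGGCCA, found earlier by a search over all peaks of this experiment, lay within 100 bp of the summit in 35 of the 203 divergent promoters. It is shown in capitals, with its flanks, at 6 of the strongest such peaks in which the stretch lay outside the exons of coding genes. All sequences are from the RefSeq WBcel235 assembly, which has ce11 coordinates, and are written 5′ to 3′ on the strand given.
cux-7/C07H6.2, chrIII:7520847-7520886, plus strand: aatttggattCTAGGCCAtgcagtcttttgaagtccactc
rps-23/dpm-3, chrIV:12391334-12391373, minus strand: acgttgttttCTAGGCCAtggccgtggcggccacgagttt
C14B9.8/mrpl-18, chrIII:8144798-8144837, plus strand: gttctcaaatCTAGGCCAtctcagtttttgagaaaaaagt
F01D4.5/ced-5, chrIV:10483862-10483901, minus strand: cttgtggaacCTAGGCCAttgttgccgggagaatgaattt
rict-1/gfm-1, chrII:13117305-13117344, plus strand: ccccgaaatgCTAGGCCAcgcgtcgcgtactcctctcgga
col-71/Y49F6B.2, chrII:3502814-3502853, plus strand: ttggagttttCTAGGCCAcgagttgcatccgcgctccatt

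The other recurrent word, ACTCCTCT, lay within 100 bp of the summit in 22 divergent promoters. It is in capitals in the next set, which shows how far the shared letters reach beyond the word. The last 4 promoters fall outside the naming rule and were added in order of signal, among those clear of exons, after their values were seen.
C14B9.8/mrpl-18, chrIII:8144753-8144784, minus strand: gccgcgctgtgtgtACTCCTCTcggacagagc
F01D4.5/ced-5, chrIV:10483914-10483945, plus strand: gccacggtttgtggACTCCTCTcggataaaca
rict-1/gfm-1, chrII:13117319-13117350, plus strand: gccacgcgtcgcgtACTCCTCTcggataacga
W02H5.16/W02H5.19, chrV:2638720-2638751, plus strand: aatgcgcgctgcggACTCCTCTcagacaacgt
C45G9.11/C45G9.2, chrIII:5069006-5069037, plus strand: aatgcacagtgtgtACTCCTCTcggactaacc
coa-3/F35D11.4, chrII:4603205-4603236, minus strand: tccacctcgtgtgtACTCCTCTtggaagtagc
C56A3.6/cav-2, chrV:13556822-13556853, minus strand: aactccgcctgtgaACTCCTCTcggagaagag

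In the last set of sequences the plus strand is shown for 75 bases either side of the summit at strong peaks that held none of the words CTAGGCCA, ACTCCTCT, GGAGTACA and GGGCGG there. They are shown because most of the strongest peaks were of this kind.
snx-13/snr-1, chrIV:17087502-17087652, plus strand: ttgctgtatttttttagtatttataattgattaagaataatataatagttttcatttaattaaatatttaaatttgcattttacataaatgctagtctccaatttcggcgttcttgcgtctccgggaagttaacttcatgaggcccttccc
F29B9.11/jmjd-1.2, chrIV:4660564-4660714, plus strand: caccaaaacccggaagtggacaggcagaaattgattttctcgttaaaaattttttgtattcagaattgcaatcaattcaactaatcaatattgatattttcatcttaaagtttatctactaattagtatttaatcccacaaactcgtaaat

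The words had close and shared surroundings. Of 37 occurrences of CTAGGCCA, 26 had T at the second base before the word and 24 had T directly before it. ACTCCTCT lay within a longer shared stretch. Of its 22 occurrences, all 22 had G at the second base before the word and all 22 had A at the fourth base after it. The most frequent bases at the first 4 positions after it spelled CGGA and were found in 19, 20, 18 and 22 occurrences. In 8 of the 22 the word was followed directly by CGGACA. On the other strand, 14 of the 22 overlapped GGAGTACA by 5 bases, so these occurrences are the same stretch of DNA. In the same way 17 of the 37 CTAGGCCA occurrences overlapped GTGGCCTA by 7 bases. The letters GGCC stood within the 40 bases before ACTCCTCT, on its strand, in 19 of 22 occurrences. Both words together lay at 10 summits, among them cux-7/C07H6.2, C14B9.8/mrpl-18, F01D4.5/ced-5 and rict-1/gfm-1. These flanks and spacings were counted after the sequences had been seen.

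Only occurrences within 100 bp of the summit were counted, and most of these lay within 50 bp of the summit. Within 50 bp of it lay 34 of the 37 occurrences of CTAGGCCA (91.9%, exact Clopper-Pearson 95% interval 78.1 to 98.3), 21 of 22 of ACTCCTCT and 23 of 23 of GGAGTACA. The GC box GGGCGG was more spread, with 27 of 40 occurrences (67.5%, 50.9 to 81.4) that close. CTAGGCCA, ACTCCTCT and GGAGTACA were picked by the earlier search at these summits. Their closeness and the contrast with GGGCGG are thus no independent evidence. Both orientations of the words occurred. CTAGGCCA read along the strand of the gene with the nearer start in 19 of 37 occurrences (51.4%, 34.4 to 68.1), and ACTCCTCT in 13 of 22 (59.1%, 36.4 to 79.3).

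Among all 203 divergent promoters, CTAGGCCA lay at 17.2% of summits, ACTCCTCT at 10.8%, GGAGTACA at 10.8% and GGGCGG at 18.7%. Any of these 4 or GTGGCCTA lay at 90 (44.3%, 37.4 to 51.5). At the midpoint of the 190 nearest divergent pairs with a summit, windows of the same 201 bp held CTAGGCCA in 12.6%, ACTCCTCT in 8.42%, GGAGTACA in 8.95% and GGGCGG in 10.5%. At the midpoint of the 2370 such pairs without a summit, the shares were 0.549% for CTAGGCCA (0.292 to 0.936), 0.633% for ACTCCTCT (0.355 to 1.04), 0.633% for GGAGTACA and 4.60% for GGGCGG. The first 3 words were picked by the earlier search at these summits, so their excess over empty pairs is no independent evidence. The cyclic AMP response element TGACGTCA, a palindrome bound by several bZIP factors, lay at 1 of 203 summits and at 1.43% of the empty midpoints (0.995 to 2.00). The C/EBP palindrome TTGCGCAA lay at 6 summits (2.96%, 1.09 to 6.32) and at 0.506% of the empty midpoints (0.262 to 0.883). It also lay at 2.11% of the midpoints of pairs with a summit. Of the 254 summits in windows of 1 strand, 5 held it (1.97%, 0.642 to 4.53). The GATA site TGATAA lay at 8.87% of summits (5.34 to 13.7), at 10% of the midpoints of pairs with a summit and at 20.1% of empty midpoints (18.5 to 21.8). Summits in windows of 1 strand held TGATAA at a similar share, 9.84% (6.47 to 14.2). All sites were counted on both strands, and a match of letters does not show a bound site.

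The occurrences of each word in the whole genome were then set beside the summits. Summits are denser in divergent promoters whatever the word. Of all bases in windows of both strands 1.95% lay within 100 bp of an optimal summit, against 0.262% in windows of 1 strand and 0.0698% outside promoter windows. CTAGGCCA occurs 92 times in windows of both strands, and 37 of these (40.2%, 30.1 to 51) lay within 100 bp of an optimal summit. Of 810 occurrences in windows of 1 strand 49 did (6.05%, 4.51 to 7.92), and of 4818 occurrences outside promoter windows 6 did (0.125%, 0.0457 to 0.271). ACTCCTCT gave 29.7% (19.7 to 41.5), 5.34% (3.49 to 7.78) and 0.520% (0.225 to 1.02) in the same order. With CGGACA directly after it, ACTCCTCT occurs 16 times in windows of both strands, with a summit at 8. GGGCGG gave 9.65% (7.01 to 12.9), 0.587% (0.373 to 0.880) and 0.274% (0.193 to 0.377). TGACGTCA was near a summit in 1 of 100 occurrences in windows of both strands. Windows of both strands lie closer to starts than the other windows, and these shares were not matched on that distance. CTAGGCCA and ACTCCTCT were picked by the earlier search at these summits, so their shares near a summit are no independent evidence.

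Gene pairs were counted in the same way. The windows of 3072 divergent gene pairs overlapped, and 210 pairs (6.84%, 5.97 to 7.79) had a summit in the shared window. Among the 2560 pairs in which each gene is the other's nearest divergent partner, 90 had CTAGGCCA between the starts, and 34 of these (37.8%, 27.8 to 48.6) had a summit. Without the word, 156 of 2470 pairs did (6.32%, 5.39 to 7.35). With ACTCCTCT the count was 19 of 73 pairs (26.0%, 16.5 to 37.6). Both words were picked by the earlier search at these summits, so these shares are no independent evidence. The pairs with and without a word were not matched on the distance between their starts. Of the 56 pairs with CTAGGCCA and no optimal summit, 7 had a summit in the relaxed lists of both replicates. Over all 2370 nearest pairs without an optimal summit, 149 did (6.29%, 5.34 to 7.34).

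The summits lay between the starts, which the choice of peaks in large part fixes. Of the 203, 193 (95.1%, 91.1 to 97.6) lay between both starts and 10 lay in an annotated exon just past a start. None lay in an intron, against 20 of the 254 summits in windows of 1 strand. The distance between the starts had a median of 516 bp and ran from 12 to 1578 bp. The summit had a median distance of 152 bp to the nearer start and 362 bp to the farther. For summits between the starts, the nearer start lay at a median of 32.1% of the way, with quartiles of 20% and 40%. The middle 50% of the distance held 126 of these 193 summits (65.3%, 58.1 to 72.0). For starts far apart only the central stretch lies in both windows, so these positions are a description. The nearer gene was on the plus strand in 106 of 203 cases (52.2%, 45.1 to 59.3).

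**Figure D1:**
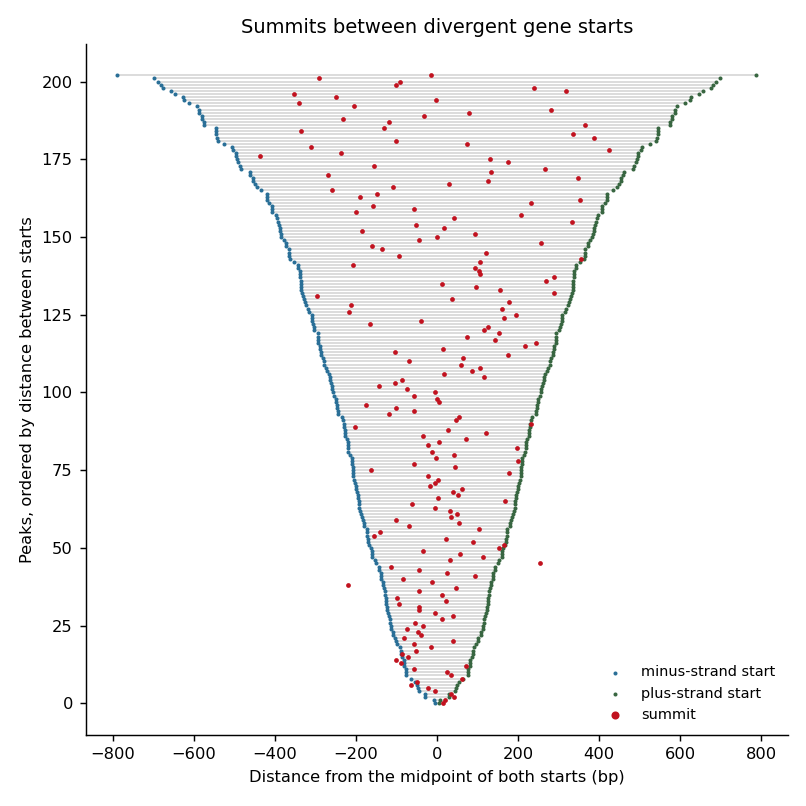
Each row is 1 of the 203 peaks, ordered by the distance between the annotated starts of its nearest minus-strand and plus-strand genes. The horizontal axis is the distance in bp from the midpoint of both starts, with starts in blue and green and the summit in red, and 193 summits lie between the starts.

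At short distance to a start, most promoter summits were in divergent promoters. Windows of both strands make up 9.73% of promoter bases and 12.6% of the bases at the distances to a start at which the summits lay. They held 44.4% of promoter summits (39.8 to 49.1), which is 3.52 times the share of bases at matched distance. Under 50 bp from the nearest start, 40 of 54 promoter summits (74.1%, 60.3 to 85) were in windows of both strands, against 17.9% of bases. From 50 bp to under 100 bp the share was 73.0% (55.9 to 86.2) against 17.3% of bases, and from 100 bp to under 200 bp it was 49.3% (40.6 to 58.0) against 15.6%. At 500 bp and beyond it was 6 of 60 (10%, 3.76 to 20.5) against 3.11%. In every one of the 7 distance bins the share of summits was above that of bases.

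**Figure D2:**
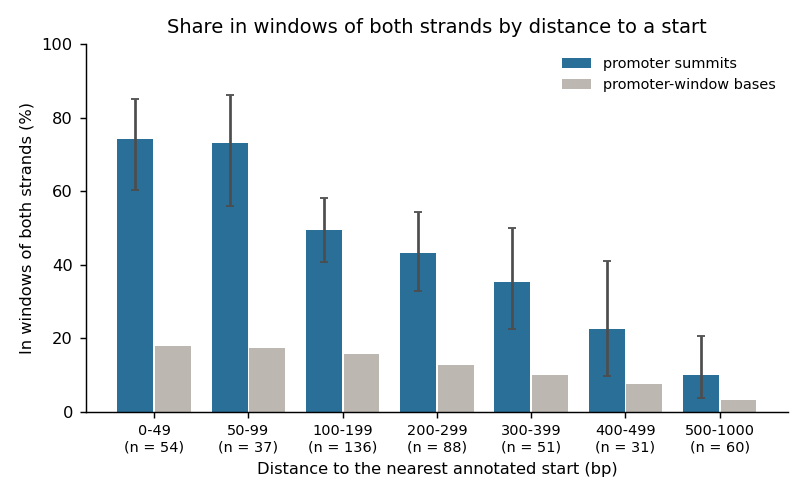
Percentage of promoter summits (blue, with exact 95% intervals) and of promoter-window bases (grey) that lie in windows of both strands, by distance in bp to the nearest annotated start. The summits run from 74.1% to 10% and the bases from 17.9% to 3.11% across the 7 bins.

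Pairs with close starts had a summit more often than pairs with distant starts. The share was 8.06% (5.00 to 12.2) for starts under 200 bp apart and 11.5% (8.59 to 15) for starts 400 bp to under 600 bp apart. It was 4.38% (2.93 to 6.27) for starts 1000 bp to under 1500 bp apart. Of 587 pairs with starts of 1500 bp or more apart 2 had a summit (0.341%, 0.0413 to 1.23). Such pairs share less sequence. Per Mb of shared window there were 161 summits for starts 200 bp to under 400 bp apart, 66.4 at 1000 bp to under 1500 bp and 14.3 beyond. None of 52 pairs with overlapping starts had a summit (upper 95% bound 6.85%).

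F32D8.14/F32D8.5, a gene of the YIPF family of Golgi proteins opposite a homologue of mitochondrial TMEM70, had starts 12 bp apart and signals of 87.2 and 66.1 in replicates 1 and 2. F25H9.6/F25H9.7 had starts 15 bp apart and signals of 160.2 and 194, and the peak held CTAGGCCA and GGAGTACA. F25H9.7 encodes an assembly factor of succinate dehydrogenase. In Y57E12AL.6/Y57E12AL.1 the starts were 60 bp apart, and the signals were 76.6 and 75.3. The longest distance, 1578 bp, was that of ctns-1, encoding the lysosomal cystine exporter cystinosin, and cdc-48.2, encoding a segregase ATPase, with 134 and 71.7. In kars-1/kat-1, the lysyl-tRNA synthetase gene and an acetyl-CoA acetyltransferase gene, it was 1399 bp, with 176 and 158. In lev-9/mom-1 it was 1380 bp, with 86.5 and 127. lev-9 acts in clustering acetylcholine receptors and mom-1 encodes Porcupine, which acylates Wnt proteins.

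Close to the window edge, mys-1/VC5.2 was kept with its summit at -999 bp from the farther start, kars-1/kat-1 at -991 bp and nasp-2/C50B6.3 at -975 bp. The summits just outside were those of ctns-1/cdc-48.2 (a further peak of that pair), nfm-1/anmt-2 and ttc-4/cdc-14, at -1013, -1036 and -1042 bp. Their optimal signals were 244, 334 and 125 inside and 374, 164 and 223 outside.

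By chromosome, the share of divergent pairs with a summit was 9.96% on III (48 of 482, 7.43 to 13.0), 9.23% on I (6.88 to 12.1), 6.45% on IV, 6.21% on II and 5.30% on V (3.83 to 7.13). On X, 3 of 190 pairs had a summit (1.58%, 0.327 to 4.54), against 207 of 2882 autosomal pairs (7.18%, 6.27 to 8.19). The X also had few divergent windows, which made up 3.74% of its promoter bases against 10.2% to 11.8% on the autosomes. The peaks on X were sec-15/C28G1.2, lev-9/mom-1 and C27C12.1/C27C12.4, the first of which lies at a gene of the exocyst. At sec-15/C28G1.2 and lev-9/mom-1 a tRNA gene lay within 100 bp of the summit, and its part in these peaks was not tested.

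**Figure D3:**
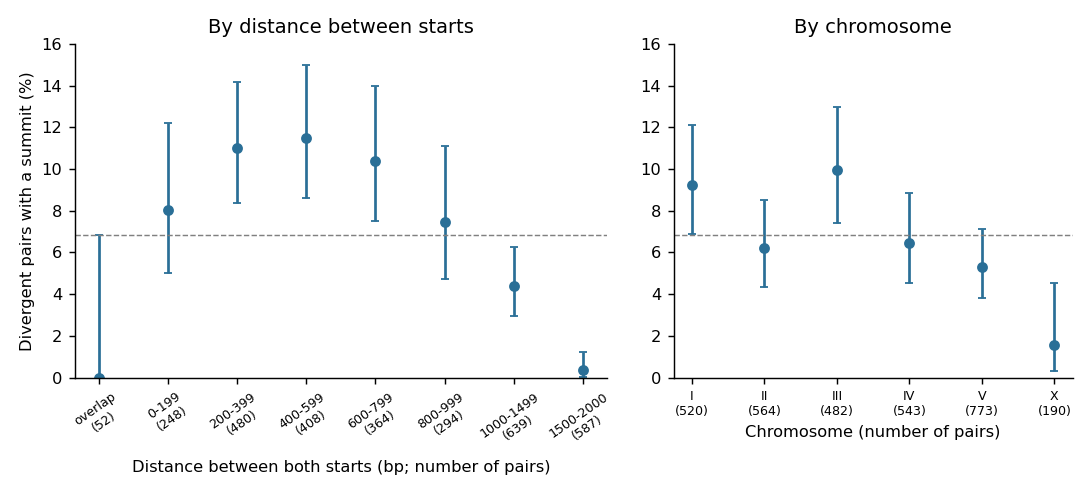
Percentage of divergent gene pairs with a summit in their shared window, with exact 95% intervals, by the distance in bp between the starts (left) and by chromosome (right), and with the number of pairs in parentheses. The dashed line is the 6.84% of all 3072 pairs, and among the chromosomes the X has the lowest share, 1.58%.

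Divergent promoters held 203 of all 730 nuclear peaks (27.8%) and 11 of the 20 strongest (55.0%, 31.5 to 76.9). Of the 200 strongest they held 71 and windows of 1 strand 73. Over all 203, the signal had a median of 86.8 in each replicate list, and ran from 37.9 to 495 in replicate 1 and from 33.5 to 444 in replicate 2. The peak of highest signal, 935, was between snx-13, a sorting nexin gene, and snr-1, which encodes the core spliceosomal protein Sm D3 (IV, 17087328 to 17087777). It had signals of 495 in replicate 1 and 444 in replicate 2 and ranked 3 in both lists. At Y71G12B.30/chaf-2, where chaf-2 encodes a subunit of the chromatin assembly factor that deposits histones behind replication forks, the replicate signals were 422 and 409.7. At Y41D4A.6/Y41D4A.4 they were 446 and 342. Y41D4A.6 encodes a subunit of the mitochondrial enzyme that completes glutaminyl-tRNA, and Y41D4A.4 a transmembrane 9 superfamily protein.

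The peak between F29B9.11, encoding cytochrome c oxidase subunit VIIc, and the histone demethylase gene jmjd-1.2 had 365 and 379. At vps-51/lin-35, a gene of endosome-to-Golgi tethering and the retinoblastoma homologue, the values were 355 and 341. At tag-266/tag-267 they were 355 and 302, where tag-267 encodes a protein of the major sperm protein type. These 6 peaks had replicate signals within 1.5 times of each other.

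The peak at ears-2/uncp-18, with the mitochondrial glutamyl-tRNA synthetase gene ears-2, had signals of 306 and 285 between starts only 92 bp apart. The genes Y41D4A.6 and ears-2 both serve mitochondrial tRNA charging. At F56B3.11/ech-5, encoding the import protein Tim21 and an enoyl-CoA hydratase of fatty acid oxidation, the signals were 279 and 226. At mlcd-1/idhg-1, encoding malonyl-CoA decarboxylase and a subunit of isocitrate dehydrogenase, they were 209 and 220.4. At rps-23/dpm-3, a small-subunit ribosomal protein and a subunit of dolichol-phosphate mannose synthase, they were 207 and 207. At eif-3.E/B0511.17, a translation initiation factor subunit opposite an uncharacterised gene, they were 218 and 187.

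The gene spat-1, which encodes the Aurora and Polo kinase cofactor Bora, shared with F57C2.5 a peak of 308 and 245. At W03C9.5/mex-1, where mex-1 encodes a zinc finger protein that partitions cell fate among early blastomeres and rab-7 shares the window, the values were 248 and 220.2. At kgb-1/T07A9.12, with a gene for a JNK-type kinase, they were 237 and 168, and at pak-2/C45B11.9, with a p21-activated kinase gene, 201 and 219. At cux-7/C07H6.2, where the window also reaches the DNA ligase IV gene lig-4, they were 267 and 260.2. The Golgi mannosidase gene aman-2 and F58H1.3, an enolase-phosphatase gene of methionine salvage, shared a peak of 305 and 147. That peak ranked 16 in replicate 1 and 103 in replicate 2.

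Of the 20 strongest peaks 2 held CTAGGCCA, 1 held ACTCCTCT and 2 held GGGCGG. Over all 203 the signals of peaks with and without these words overlapped. With CTAGGCCA the median optimal signal was 185 (quartiles 145 and 246, n = 35) and without it 165 (125 and 262, n = 168). With ACTCCTCT it was 207 (165 and 272, n = 22) and without it 165 (125 and 260.1, n = 181). The strongest peaks with CTAGGCCA after those at cux-7 and rps-23 were F25H9.6/F25H9.7, C14B9.8/mrpl-18, F01D4.5/ced-5, rict-1/gfm-1 and col-71/Y49F6B.2. mrpl-18 and gfm-1 encode a mitochondrial ribosomal protein and the mitochondrial elongation factor G, and ced-5 encodes a guanine nucleotide exchange factor needed to engulf dying cells. The replicate signals were 159 and 169 at C14B9.8/mrpl-18, 127 and 185 at F01D4.5/ced-5, and 166 and 140.4 at rict-1/gfm-1. The strongest peak with ACTCCTCT outside the first 20 was F56G4.6/wbp-4, with 205 and 184.

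Both replicate lists held all 203 peaks, which is not independent evidence because the optimal set was derived from these lists. Among the 203, log10 signal in the replicate lists gave Pearson's r = 0.875 and signal gave Spearman's rho = 0.835, as a description over peaks that share both libraries. The ratio of replicate 1 to replicate 2 signal had a median of 0.992 and ran from 0.468 to 3.11, and 180 peaks (88.7%) agreed within 1.5 times. Each peak was matched to the overlapping peak of nearest summit in a replicate list, so close peaks can share a match. The ratio of the ranks in both lists was used to find the peaks that differed most. Those most in favour of replicate 1 were the weaker peak of Y92H12BR.2/Y92H12BR.3 (signals 159 and 51.1) and the weaker peak of rocf-1/pqn-71 (84.0 and 33.5). The latter lies within 100 bp of a tRNA gene. Most in favour of replicate 2 were the stronger peak of ecps-1/atx-2 (174 and 278) and the weaker peak of sup-35/Y48A6C.4 (156 and 249). Both peaks of sup-35/Y48A6C.4 were matched to the same replicate 2 peak, and both of rocf-1/pqn-71 to the same replicate 1 peak. atx-2 encodes ataxin-2, an RNA-binding regulator of translation.

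**Figure D4:**
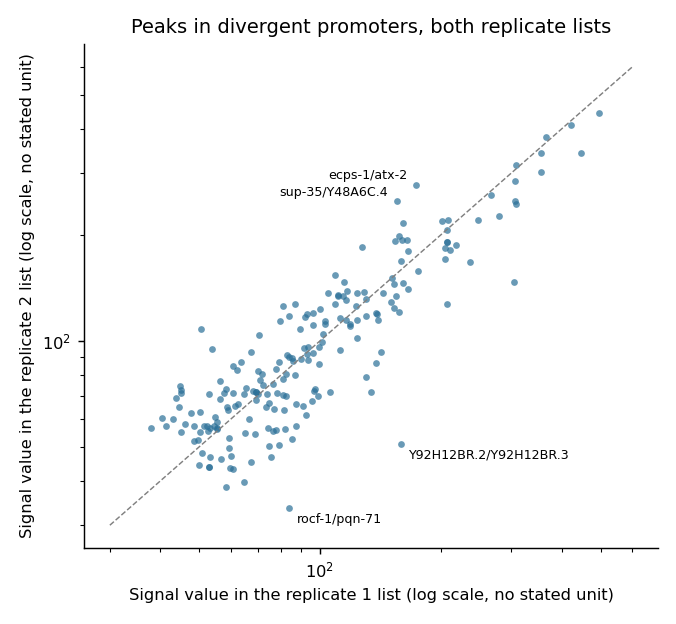
Signal value of each of the 203 peaks in the replicate 1 list (horizontal) and the replicate 2 list (vertical), both on log axes without a stated unit, with equality dashed. The labelled peaks are those with the most extreme ratio of ranks between the lists, and the ratio of the signals ran from 0.468 to 3.11.

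A nearest gene pair could hold 2 summits. The 203 summits fell on 191 nearest pairs, of which 12 held 2. The summits of such a pair were a median of 202 bp apart, and at most 543 bp, at ecps-1/atx-2. The strongest were Y92H12BR.2/Y92H12BR.3 with optimal signals of 619 and 329.9, sup-35/Y48A6C.4 with 556 and 299.6, and ecps-1/atx-2 with 465 and 338. Y92H12BR.2 encodes a protein related to the mRNA export factor CHTOP, and sup-35 one related to a regulator of microtubule dynamics. Close summits of a pair may share sequenced fragments and are not independent.

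Genes of endoplasmic reticulum entry, traffic, ribosomes, translation and chromatin had a summit more often than genes at large, and chemoreceptor, F-box and lectin genes less often. Of 5656 genes with a window shared across strands, 401 (7.09%, 6.43 to 7.79) had a divergent summit. The shares below describe each list beside that value, and no test over a list was made. The intervals of the 8 lists just named exclude that value, which is a description and no test. The lists were chosen with earlier results of these data known. Those of the endoplasmic reticulum and of chemoreceptors were corrected after their counts were seen. The 401 genes are not independent, since 2 or more share each summit.

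Endoplasmic reticulum entry and N-glycosylation had the highest share, 9 of 21 genes (42.9%, 21.8 to 66.0). These genes build the sugar chain on dolichol, move proteins across the membrane and cut or glycosylate them. The strongest were dpm-3 (optimal signal 406, summit at -249 bp from its start), dad-1, a subunit of oligosaccharyltransferase (211, -417 bp), and algn-13 (205, -225 bp). algn-13 and algn-14 (181, -21 bp) encode the partner subunits that add the second sugar to the dolichol-linked chain. Other members, named here beyond the naming rule, were algn-6, spcs-2 of signal peptidase, and trap-3 and sec-61.B. The pair sec-61.B/trap-3, a translocon channel subunit and a translocon-associated protein with starts 770 bp apart, shared a peak with optimal signal 136. It was the 1 pair with a summit among the 112 divergent pairs in the genome whose genes are on the same list. Over all 3072 divergent pairs, 210 (6.84%) had a summit.

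Chromatin modifiers and assembly factors had a share of 25% (7 of 28, 10.7 to 44.9), led by chaf-2, jmjd-1.2 and mys-1, which encodes a Tip60-type acetyltransferase. Translation factors had 24.1% (7 of 29, 10.3 to 43.5), led by eif-3.E, gfm-1 and eif-4A3. Cytosolic ribosomal proteins had 22.6% (12 of 53, 12.3 to 36.2). Their strongest were rps-23 (406), rpl-15 (267) and rps-26 (261), and a snoRNA gene lay within 100 bp of the rps-26 summit. Vesicle and endosome traffic had 21.0% (13 of 62, 11.7 to 33.2), led by snx-13, vps-51 and rab-7. sec-61.B is on this list and on that of the endoplasmic reticulum.

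The intervals of the next lists held the background. DNA repair had 23.5% (4 of 17, 6.81 to 49.9), namely lig-4, rad-54.L, mre-11 and polq-1. Aminoacyl-tRNA synthetases had 3 of 15 (4.33 to 48.1), ears-2, mars-1 and kars-1. Transcription machinery and Mediator had 5 of 28 (17.9%, 6.06 to 36.9), splicing 4 of 30 (13.3%, 3.76 to 30.7), and cell cycle and replication 5 of 39 (12.8%, 4.30 to 27.4). Nuclear pore and transport genes had 3 of 25 (12%, 2.55 to 31.2) and mitochondrial ribosomal proteins 3 of 30 (10%, 2.11 to 26.5). Ubiquitin conjugation genes (2 of 22), respiratory chain genes (2 of 27) and proteasome genes (2 of 30) had 9.09%, 7.41% and 6.67%. The DREAM complex had 1 of 5, lin-35, and mitochondrial protein import 1 of 5, tomm-7.

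Chemoreceptors, the large families of sensory receptors, had 4 of 297 (1.35%, 0.368 to 3.41). F-box proteins had 2 of 106 (1.89%, 0.229 to 6.65), and C-type lectins, many of which are immune effectors, 0 of 81 (upper bound 4.45%). Nuclear hormone receptors had 1 of 46, nhr-142, with an upper bound of 11.5%, and collagens 2 of 40, col-71 and col-2. Major sperm protein genes of the msp name (0 of 20), neuropeptides and insulins (0 of 17), homeobox factors (0 of 12) and bZIP factors (0 of 3) had none, with upper bounds from 16.8% to 70.8%.

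The lists also differed in how far apart the divergent starts were. The median distance was 725 bp over all such genes, 527 bp for the endoplasmic reticulum list, 567 bp for ribosomal proteins, 1054 bp for chemoreceptors, 753 bp for lectins and 452 bp for F-box proteins. Among genes with a divergent start under 1000 bp away, 350 of 3640 (9.62%, 8.68 to 10.6) had a summit. The endoplasmic reticulum list then had 9 of 17 (52.9%, 27.8 to 77.0), traffic 12 of 37 (32.4%, 18 to 49.8) and ribosomal proteins 12 of 48 (25%, 13.6 to 39.6). Chemoreceptors had 3 of 130 (2.31%, 0.478 to 6.6), F-box proteins 2 of 82 (2.44%, 0.297 to 8.53) and lectins 0 of 53 (upper bound 6.72%).

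**Figure D5:**
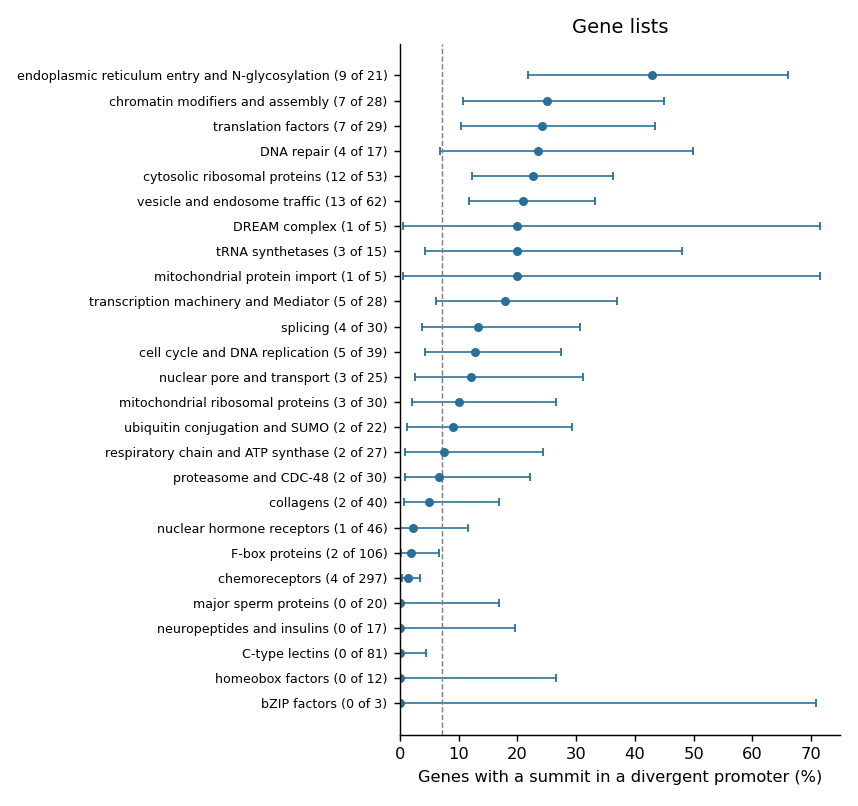
Percentage of the genes of each of 26 lists that have a summit in a divergent promoter, among those with a window shared across strands, with exact 95% intervals and counts in parentheses. The dashed line is the 7.09% of all 5656 such genes, with the endoplasmic reticulum list highest at 42.9% and 5 lists at 0.

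Divergent promoters were compared with the 254 promoter peaks in windows of 1 strand in 5 Fisher's exact tests, each of them two-sided, with Benjamini-Hochberg adjustment over the 5. Peaks are not replicates, so these tests describe both lists of peaks and not the spread between animals. No difference in signal passed the test, with 50.2% of divergent peaks (43.2 to 57.3) and 49.6% of the others (43.3 to 55.9) above the promoter median (adjusted p = 0.925 by Fisher's exact test, odds ratio 1.03). Among the stronger 50% of peaks the odds ratio was 1.85 (adjusted p = 0.0374 by Fisher's exact test), and without peaks near tRNA or snoRNA genes it was 0.962. The medians were 169 and 167, but the highest signals were 935 and 2499.

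Within 250 bp of the nearest start lay 79.8% of divergent summits and 47.2% of the others. The position chose the peaks, so this is given as a description and its test is not read. Fewer divergent summits, 7 of 203 (3.45%), lay within 100 bp of a tRNA or snoRNA gene, against 30 of 254 (11.8%), an odds ratio of 0.267 (adjusted p = 0.00165, Fisher's exact test). The 7 were 5 at tRNA and 2 at snoRNA genes. With a window of 500 bp upstream the adjusted p from the exact test was 0.0615. The comparison of tRNA and snoRNA genes was not matched on the distance to a start.

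Divergent summits were poorer in G and C. The median GC content of the 201 bp around the summit was 38.3% in divergent promoters and 40.3% in the others. Of the former 39.9% and of the latter 55.5% were above the promoter median (adjusted p = 0.00165 by Fisher's exact test, odds ratio 0.532). Within 50 bp of the summit the call was lost (adjusted p = 0.164 by the exact test, odds ratio 0.748). At the midpoint between the starts the median was 35.1% for pairs with a summit and 33.3% for pairs without. The comparison of GC content at summits was not matched on the distance to a start, by which both lists of peaks differ. Whether the windows of both strands differ in GC content from those of 1 strand was not tested.

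The strongest 730 peaks of both replicate lists included 88.2% of divergent peaks and 80.3% of the others (adjusted p = 0.0367 by Fisher's exact test, odds ratio 1.83). This call was lost in 5 of 6 alternatives, with odds ratios from 1.10 to 2.05. Down the list called on both alignments, divergent promoters took a falling part of the promoter summits. They held 44.4% among ranks 1 to 730, 26.7% (22.3 to 31.4) among ranks 731 to 1460 and 15% (10.4 to 20.7) among ranks 3651 to 4362.

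Of 19 fixed sites 1 (5.26%) differed, the GC box GGGCGG, at 38 divergent summits (18.7%, 13.6 to 24.8) against 22 of the others (8.66%, 5.51 to 12.8). Its adjusted p over the 19 was 0.0383 by Fisher's exact test, with an odds ratio of 2.43. The call was lost in 8 of 10 alternatives, while the odds ratio lay between 1.86 and 2.64 in all 10. CTAGGCCA was at 35 and 44 summits, or 17.2% and 17.3% (adjusted p = 1.00 by Fisher's exact test, odds ratio 0.994). By the same exact test ACTCCTCT, at 22 and 21, had an adjusted p of 0.773, and GGAGTACA, at 22 and 19, one of 0.671. The overlapping word GTGGCCTA was at 18 and 35 (adjusted p = 0.515 by the exact test, odds ratio 0.609). GGGTTCGA, part of the internal promoter of tRNA genes, was at 4 and 14 (adjusted p = 0.487 by the exact test, odds ratio 0.345). Over all words in at least 5 windows, 0 of 2067 words of 6 bases and 0 of 4818 words of 8 bases differed (0% of each) by Fisher's exact test with adjustment. GGGCGG was among these words of 6 bases, counted with its reverse complement CCGCCC at the same 38 and 22 summits. Adjusted over all words of 6 bases, its p was 0.416 by Fisher's exact test. The unadjusted p of Fisher's exact test was under 0.05 for 120 of the 2067 and 197 of the 4818 words. These counts are not read as differences.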

How the data were processed

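Data were peak lists from 2 ChIP-seq replicates. The authors deposited a signal score and a −log10 q-value for each peak, per the file headers and listings. Each replicate list was called on its own alignment with a control, a further list on both alignments, and the optimal set was derived from these by the irreproducible discovery rate. The aligner, peak caller and threshold were not given in the sources used here. The q-values were used only to break ties in rank. The ce11 lists were used with the Ensembl 115 annotation and the RefSeq genome of WBcel235. Mitochondrial peaks and ce10 lists were not used.

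Positions were computed in Python 3.11.15 with NumPy 2.4.6, tests in SciPy 1.17.1 and plots in matplotlib 3.10.9. Two-sided Fisher's exact tests compared peaks in windows of both strands with those in windows of 1 strand. Intervals are Clopper-Pearson at 95% and cover only counting error of peaks or genes. Word searches used 100 bp either side of the summit and were tested on simulated data. Overlap meant at least 1 shared bp.

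Members, gene lists and sites were chosen with earlier results of these data known. The patterns of the endoplasmic reticulum and chemoreceptor lists were corrected after their counts were seen, to remove genes that only share a name prefix. Named are the 20 strongest peaks, the 5 strongest further peaks with CTAGGCCA and the 5 with ACTCCTCT or GGAGTACA, extremes of start distance, window edge and replicate rank, the strongest list members and pairs with more than 1 summit. Gene functions follow RefSeq product names, found for all 401 genes, or common knowledge. Alternatives were other windows, starts, peak sets and word windows. Leaving out a replicate meant taking the strongest 730 nuclear peaks of the other's list. Values of 1 gene on a list are not reported here.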

Additional observations from a re-analysis of the deposited data

How the results depend on the processing

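The share of promoter summits in windows of both strands was 35.8% with a window of 500 bp upstream. Leaving out a replicate gave 43.7% to 44.3% for it and 6.77% for pairs with a summit in both cases. The share of pairs with a summit was 5.94% with 2000 bp upstream and 3.84% for the stronger 50% of peaks, which holds fewer summits by construction. The comparison of signal had an odds ratio of 1.85 (adjusted p = 0.0374, Fisher's exact test) in the stronger 50% of peaks and 0.962 without peaks near tRNA or snoRNA genes. The odds ratio for a summit within 250 bp of a start, a description, was 4.41 and ran from 3.87 to 6.00 over 8 alternatives. GC content lost its call with 50 bp either side (0.748). The tRNA and snoRNA comparison lost it with 500 bp upstream (0.268). Leaving out a replicate gave odds ratios of 1.14 to 1.18 for signal, 4.23 to 4.30 for distance, 0.523 to 0.615 for GC content and 0.259 to 0.285 for tRNA and snoRNA genes. The share in the strongest peaks of both replicates lost its call with 500 bp upstream (1.42), 2000 bp upstream (1.53), no bases downstream (1.73), without peaks near tRNA or snoRNA genes (1.80) and with an overlap of 50% of both peaks (1.10). In the stronger 50% of peaks it gave no finite odds ratio. The number of fixed sites that differed was 0 with 500 bp or 2000 bp upstream, starts of all transcripts, the stronger 50% of peaks, either replicate left out, and 50 bp or 200 bp either side. Without replicate 1 or 2, the odds ratio of GGGCGG was 1.86 and 2.24, and 0 words of 6 or 8 bases differed. Words of 6 bases that differed numbered 1 with 500 bp and 2 with 2000 bp upstream. The odds ratio of CTAGGCCA, never past the threshold, was 1.25, 1.23 and 1.17 with 500 bp upstream, 2000 bp upstream and starts of all transcripts, and 1.00 and 1.04 with 50 bp and 200 bp either side. Where no reason is given, the cause was not tested. No paired analysis was possible because there is 1 group.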
